A study of Mus musculus with 12 samples.

Results

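Itgam, Il10rb, Tfrc, Cd44, Cd33, Cd53, Cebpb and Lyz2 are 8 genes of macrophage identity and of the macrophage surface, taken here by their symbols among the 2095 genes that at least 1 of 6 ac4C peak lists overlaps. All 8 were found. They were chosen by which of the lists hold a peak of the gene, with that pattern known, so the lists that hold each gene are a description and carry no test. The study followed peritoneal macrophages of the mouse in culture with interferon-γ (IFN-γ), the cytokine of classical macrophage activation, for 0, 24 or 48 h. RNA bearing N4-acetylcytidine (ac4C) was pulled down and sequenced in 2 samples at each time, and total RNA in 2 more. The 0 h samples carry the IFN-γ label with no hours of exposure, and no untreated group at 24 h or 48 h is among the samples, so the cytokine and the time in culture cannot be told apart. The labels do not say whether the samples of a time came from separate animals or cultures, and give neither the strain nor the age of the mice.

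The 8 genes fall into receptors and adhesion molecules (Itgam, Tfrc, Il10rb, Cd44, Cd33), a tetraspanin membrane organiser (Cd53), a transcription factor (Cebpb) and a secreted product (Lyz2). ac4C is an acetylated cytidine that NAT10 writes into RNA, and it has been linked to the stability and translation of messenger RNAs. Macrophage surface receptors decide what the cell binds, takes up and answers to, and their messengers are often controlled through the 3′ UTR, the part after the coding sequence.

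Each list, 2 per time and called list 1 and list 2 with no order between them, gives the regions where the pull-down exceeded its control, here called input. There were 1151 and 946 peaks in the 0 h lists, 725 and 646 in the 24 h lists, and 674 and 611 in the 48 h lists. Input coverage, recovered from the deposited values, was 100% and 91.4% of that of the deepest list in the 0 h lists, 73.7% and 80.8% in the 24 h lists, and 57.2% and 44.5% in the 48 h lists. Fold enrichment, p and q of a peak are the authors' values, and a fold is given below with a 95% exact Poisson interval from the pull-down fragments under the summit, which covers their counting error only. The labels name no molecular identifiers, so fragments need not be independent molecules. A gene without a peak has no value in a list, and fewer cells of a type, less of its RNA per cell and less ac4C on that RNA cannot be told apart. Of 10 macrophage markers 4 had a peak in any list (Itgam, Lyz2, Mpeg1, Cebpb), and of 45 markers of other peritoneal cell types 1 did, the mesothelial gene Wt1 in 48 h list 2. Of all coding genes, 8.14% had a peak in any list. Itgam, Lyz2 and Cebpb are members, chosen by their peaks, and only Mpeg1 was found among the other macrophage markers. The marker counts are therefore no measure of the purity of the cells.

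Itgam, Tfrc, Il10rb and Cd44 had a peak in both 0 h lists and in no later list. Cd53 had a peak in both 0 h and both 24 h lists and in neither 48 h list, and Cd33 in both 48 h lists only. Cebpb had a peak in 5 lists, all but 24 h list 2, and Lyz2 in 0 h list 2 alone. Both lists of 0 h, 24 h and 48 h thus held 6, 1 and 2 members, and 20.9%, 10.5% and 10.2% of the 1783 coding genes called in any list. Of the 372 coding genes called in both lists at 0 h, 41.7% (155) were in neither 24 h list, 38.2% (142) in neither 48 h list and 27.2% (101) in none of the 4. Of the 6 members called in both lists at 0 h, 4 were lost at 24 h, 5 at 48 h and 4 at both times, counts that the choice of the members fixed. Of the coding genes called in both 24 h lists, 22.5% were in neither 0 h list, and the 1 member called there, Cd53, was not among them. Cd53 was proposed as a gene that gains its peak at 24 h, and the lists go against that, since its peak was already in both 0 h lists.

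**Figure D1:**
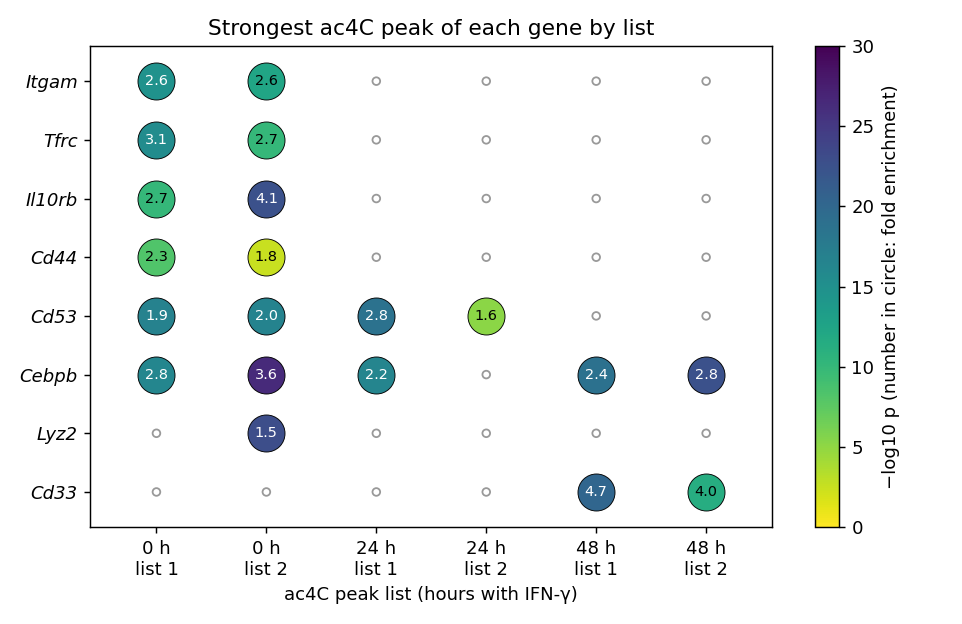
Strongest ac4C peak of each gene (rows) in each of the 6 lists (columns), coloured by −log10 p, with the fold enrichment written in the circle; small open circles are lists with no peak. The 4 receptors at the top have circles at 0 h only, Cd33 at 48 h only, and Cebpb in all lists but 24 h list 2.

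Itgam (ENSMUSG00000030786) encodes CD11b, the integrin chain that pairs with the Itgb2 product as complement receptor 3 and marks myeloid cells. Its peak lay in the 3′ UTR on chromosome 7 (GRCm39), from 127716623 to 127717066 in 0 h list 1 and from 127716674 to 127717056 in 0 h list 2. The fold enrichment was 2.60 (95% interval 2.26 to 2.98, 200 fragments) in list 1 and 2.58 (2.20 to 3.02, 158 fragments) in list 2, at a −log10 p of 14.8 and 12.4. The summits were 5 bases apart and the 2 peaks shared 382 bases. A further 3′ UTR peak, 253 bases beyond the shared region at 127717319 to 127717544, was called in 0 h list 1 only, where its fold was 2.39 (1.94 to 2.90) and its −log10 q 2.27. Both places also lie in an intron of the predicted gene Gm49368, and the tables do not say which strand the fragments came from.

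Tfrc (ENSMUSG00000022797) encodes transferrin receptor 1, which brings iron into the cell and whose 3′ UTR is known for the iron-responsive elements that set the life of its messenger. The peak was in the 3′ UTR on chromosome 16, from 32449399 to 32449735 in 0 h list 1 and from 32449401 to 32449720 in 0 h list 2. Its fold was 3.06 (2.61 to 3.57, 159 fragments) and 2.66 (2.20 to 3.17, 117 fragments), with −log10 p of 15.5 and 10.0. The summits were again 5 bases apart, and 94.9% of the bases under either peak were under both, the highest share between the 2 lists of a time among the members.

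Il10rb (ENSMUSG00000022969) encodes the receptor chain shared by interleukin-10, interleukin-22 and the type III interferons. Its peak ended at the last annotated base of the gene in 0 h list 2 (chromosome 16, 91222454 to 91222710) and just before it in 0 h list 1 (91222478 to 91222706). The summits lay 151 and 137 bases from the annotated end of the gene in lists 2 and 1. The fold was 4.13 (3.50 to 4.84, 148 fragments) in list 2 and 2.67 (2.23 to 3.18, 123 fragments) in list 1, and these 2 intervals did not overlap. The strength of this peak thus differed between the lists of one time by more than the counting error of the pull-down, that of the input not included, although the place was the same.

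Cd44 (ENSMUSG00000005087) encodes the hyaluronan receptor of leukocytes, and it differed from the other 3 genes in that no place recurred. In 0 h list 1 the peak covered 102643774 to 102644440 on chromosome 2, in the 3′ UTR, with a pair of summits at folds of 2.29 (1.93 to 2.71) and 2.08 (1.65 to 2.59). In 0 h list 2 the peak covered 102641644 to 102641952, also in the 3′ UTR but 1822 bases away, at a fold of 1.81 (1.34 to 2.39, 45 fragments). That second peak had a −log10 p of 2.55, close to the weakest of its list, and a q of 1, and it ranked at percentile 5.0 of the list by p. Of all coding genes called in both lists at 0 h, 84.4% had 1 merged region present in both, as 5 of the 6 members did, and Cd44 had none.

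**Figure D2:**
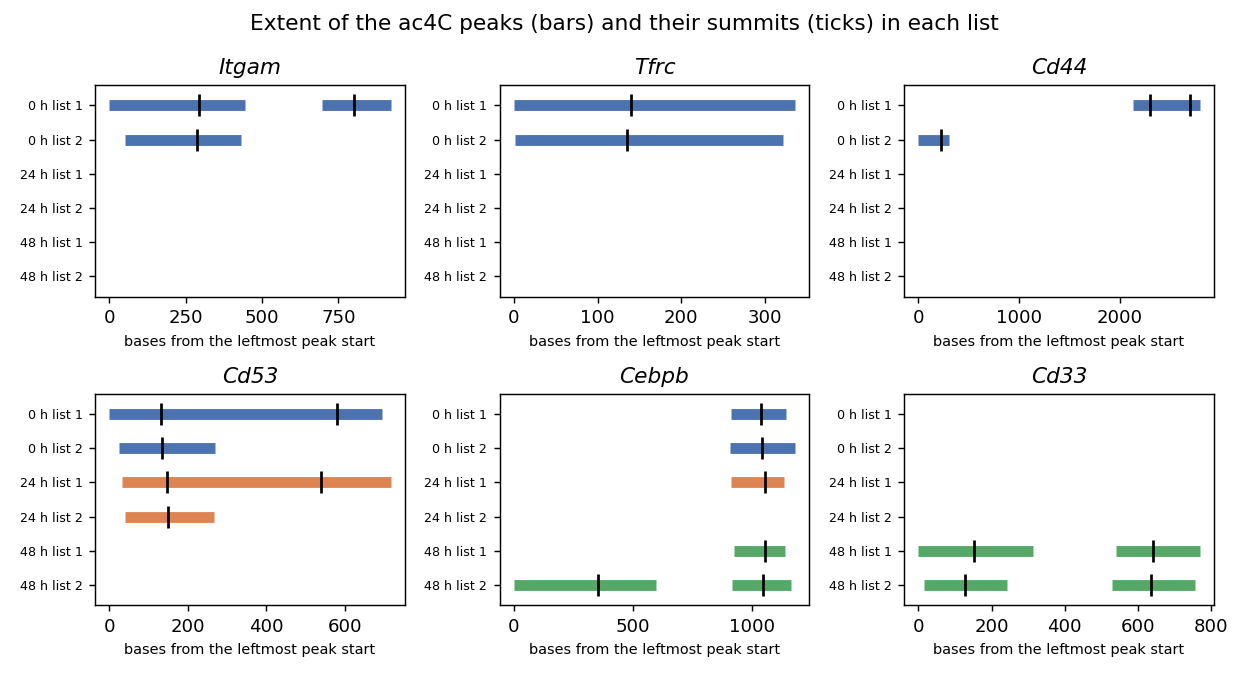
Extent of the peaks (bars) and their summits (black ticks) of 6 genes in each list, in bases from the leftmost peak start of the gene, coloured by time. The Itgam and Tfrc bars align between the 0 h lists, the Cd44 bars do not overlap, the right-hand Cebpb bars align in 5 lists, and Cd33 has 2 aligned pairs at 48 h.

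The depth of the later lists was set against these 0 h peaks. Fragments and input coverage under each 0 h summit were multiplied by the ratio of the input coverage of a later list to that of its own list, and p was recomputed, which asks what p the same enrichment on the same share of input would have had there. For the shared region of Itgam the −log10 p came to between 6.88 and 12.1 over both 0 h lists and the 4 later depths. For Tfrc it came to between 5.39 and 12.9, and for Il10rb to between 4.86 and 20.1. All of these pass p of 0.005, the limit at which the weakest peaks of every list stand. For Cd44 the peak of list 1 kept 4.40 to 6.98, while that of list 2 failed it at every later depth, at 1.61 to 2.18. The calculation holds the share of input RNA at its 0 h level, and the level of these messengers at 24 h and 48 h is not given by the lists. It also takes each 0 h fold without its counting error, in genes chosen by the lists that hold their peaks. Why a later list held no peak was not tested.

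**Figure D3:**
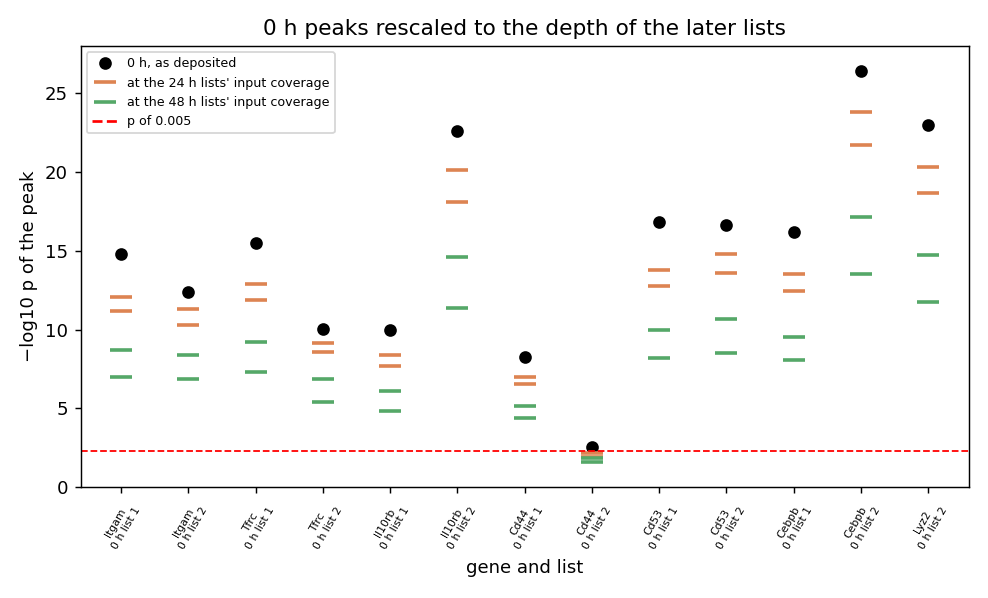
−log10 p of the strongest 0 h peak of each gene and list as deposited (black) and recomputed at the input coverage of the 24 h and 48 h lists (coloured dashes), with the threshold at p of 0.005 (red). The peak of Cd44 in 0 h list 2 is under the line at all 4 later depths and the other 12 peaks are above it.

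Cd53 (ENSMUSG00000040747) encodes a tetraspanin of leukocytes, a membrane protein that gathers receptors and integrins into complexes. Its peak lay in the 3′ UTR near the end of the gene on chromosome 3, and the merged region ran from 106667335 to 106668051. A summit 231 to 247 bases from the annotated end of the gene was found in all 4 lists, at folds of 1.92 (1.752 to 2.104) and 1.99 (1.798 to 2.199) at 0 h and 1.86 (1.653 to 2.085) and 1.64 (1.451 to 1.852) at 24 h. The peak was weakest in 24 h list 2, where its −log10 p was 5.24 and its −log10 q 0.79, a q above 0.05. A further summit inside the same region, 678 bases from the end of the gene in 0 h list 1 and 636 in 24 h list 1, was called in those 2 lists only. It had a fold of 2.80 (2.52 to 3.12) in 24 h list 1, against 1.78 (1.61 to 1.97) in 0 h list 1. In 24 h list 1 it was the strongest summit of the gene and in 0 h list 1 the weaker. At the input coverage of the 48 h lists the 0 h peaks of Cd53 would have had −log10 p of 8.18 to 10.7, and the common summit of the 24 h lists 3.23 to 5.74, all past p of 0.005. Of the 187 coding genes called in both 24 h lists, 24.6% were in neither 48 h list. Of the 104 called in all 4 earlier lists, 7, or 6.73%, were in neither 48 h list, Cd53 being 1 of them.

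Cd33 (ENSMUSG00000004609) encodes a myeloid receptor of the Siglec family, which binds sialic acid on cell surfaces, and it was the 1 member whose peaks were found at 48 h alone. A first 3′ UTR region on chromosome 7 ran from 43176495 to 43176809 in 48 h list 1 and from 43176511 to 43176738 in 48 h list 2. Its fold was 4.73 (4.07 to 5.47, 174 fragments) in list 1 and 4.05 (3.38 to 4.81, 121 fragments) in list 2. A second 3′ UTR region began 216 bases beyond it, from 43177036 to 43177264 in list 1 and from 43177025 to 43177250 in list 2, at folds of 3.35 (2.75 to 4.04) and 3.23 (2.62 to 3.96). The summits of the second region were 5 bases apart between the lists and those of the first 25 bases. For comparison, the median gap was 17.0 bases over the 188 regions found in both 48 h lists. Cd33 thus showed the same 2 places in both lists, about 3 kb from the annotated end of the gene (2983 to 3496 bases). The 48 h lists had the lowest input coverage. At the input coverage of the 0 h and 24 h lists the first region would have had −log10 p of 17.5 to 33.8. Its deposited values were 20.2 in list 1 and 11.3 in list 2. That rise was fixed in advance, since the earlier lists were deeper. The level of the Cd33 messenger at 0 h and 24 h is not given by the lists. Why the earlier lists held no Cd33 peak was not tested. Of the 181 coding genes called in both 48 h lists, 24.3% were in neither 0 h list and 9.39% in none of the other 4.

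Cebpb (ENSMUSG00000056501) encodes C/EBPβ, a transcription factor that acts in macrophage differentiation and in the inflammatory response, from a gene without introns. The same 3′ UTR region of chromosome 2, merged from 167532025 to 167532297, recurred in 5 lists with summits within 13 bases of each other and 169 to 182 bases from the annotated end of the gene. Its fold was 2.79 (2.42 to 3.21) and 3.60 (3.13 to 4.11) at 0 h, 2.15 (1.97 to 2.35) in 24 h list 1, and 2.36 (2.16 to 2.58) and 2.84 (2.59 to 3.10) at 48 h. The interval of 0 h list 2 lay above both 48 h intervals, and that of 0 h list 1 overlapped both. An additional peak in the last exon, 311 bases upstream of the recurrent region, was called in 48 h list 2 only, at 167531118 to 167531714, where its fold was 3.44 (2.55 to 4.56) and its −log10 q 0.02. It was the 1 peak of the members' 24 whose centre was not annotated to a 3′ UTR. Of the 1783 coding genes called in any list, 7.74% were called in 5 or more.

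The input coverage at the Cebpb summit, divided by the background coverage of its list, was 36.7 and 36.2 at 0 h, 111 in 24 h list 1, and 124 and 115 at 48 h. The 48 h mean was 119.8 ± 6.09, against 36.4 ± 0.39 at 0 h (SD, n = 2 lists each), a ratio of 3.29. Each of the 3 later values stood above both 0 h values, and the 95% counting intervals of the later lists (lowest bound 83.2) did not reach those of the 0 h lists (highest bound 52.6). Over the 91 regions found in both lists of 48 h and 0 h, the median log2 ratio of this quantity was -0.01, with 90% of regions between -1.01 and 1.27, and Cebpb at 1.72 was at percentile 97.8. The recurrent ac4C peak of Cebpb sat on 196 and 213 pull-down fragments at 0 h, 493 in 24 h list 1 and 472 and 466 at 48 h. These counts are not adjusted for the depth of the pull-down. Recovered in the same way, that depth was 91.5% and 78.0% of the deepest list at 0 h. It was 100% in 24 h list 1, and 78.0% and 68.5% at 48 h. At Cd53 the same measure at the common summit was lower at 24 h, 74.7 and 78.7, against 129 and 121 at 0 h. The 24 h mean was 76.7 ± 2.84, against 124.5 ± 5.63 at 0 h (SD, n = 2 lists each), a ratio of 0.62. The Cd53 log2 ratio of -0.70 was at percentile 14.3 of the 98 regions found in both lists of 24 h and 0 h, whose median was -0.12, so it was within the range of the other regions. A two-sided exact permutation test of 2 lists against 2 cannot go below p = 0.33, so none was used.

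**Figure D4:**
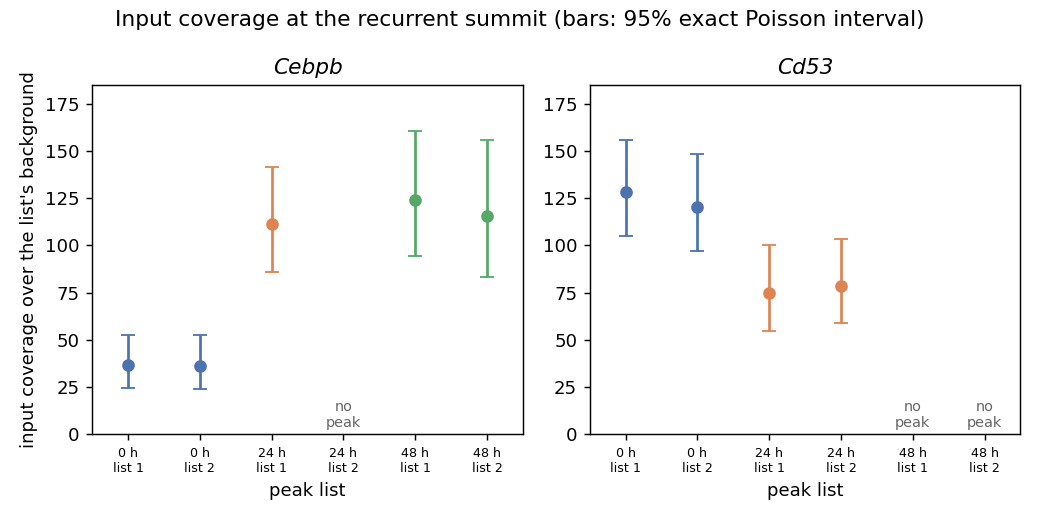
Input coverage at the recurrent summit of Cebpb (left) and at the summit of Cd53 nearest the gene end (right), over the background coverage of the list, in the lists with a peak; points are single lists and bars are 95% exact Poisson intervals. The Cebpb values at 24 h and 48 h, 111 to 124, lie above 36.2 and 36.7 at 0 h, and the Cd53 values at 24 h lie below those at 0 h.

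Lyz2 (ENSMUSG00000069516) encodes lysozyme M, an abundant secreted enzyme of macrophages and neutrophils. Its peak was called in 0 h list 2 only, in the 3′ UTR on chromosome 10 from 117113383 to 117113637, with the summit 250 bases from the annotated end of the gene. It held 1265 fragments over an input coverage of 382, which is 512 times the background and percentile 99.8 of its list. The fold was 1.55 (1.47 to 1.64), at percentile 0.8 of its list, while the −log10 p of 23.0 was at percentile 94.1. By p the Lyz2 peak was thus among the strongest of its list and by fold among the weakest. Of the coding genes called in any list, 52.0% were called in 1 only.

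The members differed in enrichment and in the input under their peaks. Cd33 had the highest fold, 4.73 in 48 h list 1, and its first region lay on an input coverage of 21.4 and 19.3 times the background. Tfrc stood at 26.9 and 26.8, Il10rb at 23.9 and 21.5, and Itgam at 40.4 and 37.5, with Cd53 and Lyz2 above these. The median peak of a list had an input coverage of 5.90 to 8.25 times its background. Every member's strongest peak in a list thus had a higher recovered input coverage than the typical peak. The median fold of a list was 2.94 to 3.35. All of the strongest peaks of Itgam, Cd44, Cd53 and Lyz2 had folds under the median of their list, and both of Cd33 were above it.

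**Figure D5:**
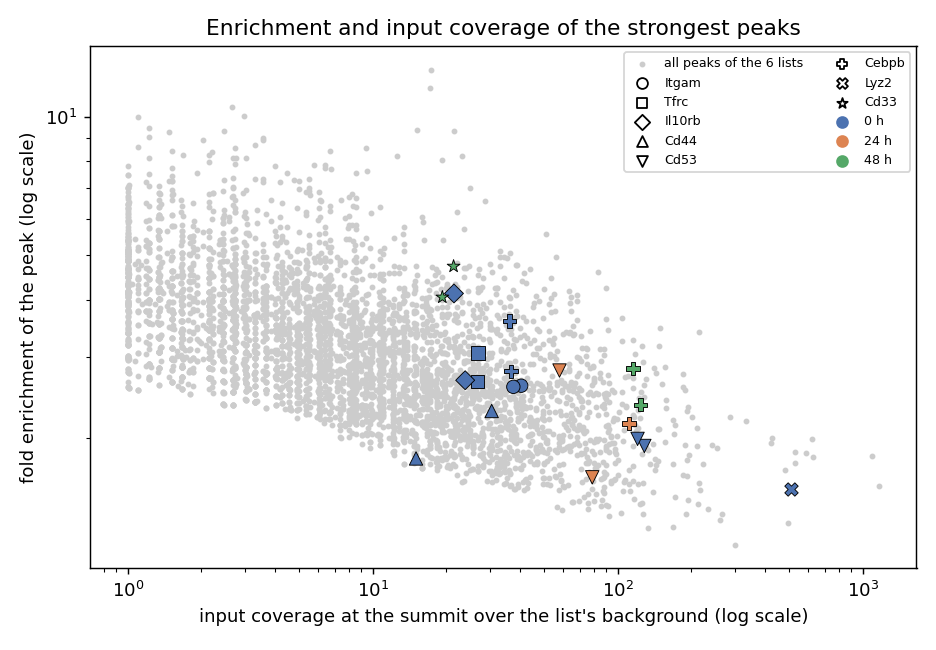
Fold enrichment against the input coverage recovered for the summit, in units of the list's background, both on log scales. All peaks of the 6 lists are grey, and the strongest peak of each gene in each list is a symbol (by gene, coloured by time). Cd33 of 48 h list 1 lies at the top of the members. Lyz2 lies at the lower right, at a fold of 1.55 and an input coverage of 512 times the background.

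The members shared their place in the transcript. The centre of 23 of their 24 peaks lay in a 3′ UTR, beside 37.8% to 59.4% of all peaks of a list. Those shares include peaks outside genes and on noncoding genes, while the members are all coding genes. The peaks of a member also repeat the same places, so they are not separate placements. The 24 peaks formed 12 merged regions, of which 7 were found in 2 or more lists. Among all regions of a time, 25.5%, 16.6% and 17.3% were in both lists at 0, 24 and 48 h. The members were chosen by the lists that hold them, so their recurrence was in part fixed by that choice. At 0 h the summits of Itgam, Tfrc, Il10rb, Cd53 and Cebpb were 1 to 14 bases apart between the lists, and the median gap over the 424 regions found in both was 16.0 bases.

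Genes with a peak in the same lists and at the nearest percentile of p were looked up for each member. The search ran over as many lists as hold the member, with the lists themselves shared. For Itgam, Tfrc, Il10rb and Cd44 there were 100 other coding genes with the same lists. There were 205 for Lyz2, 18 for Cebpb and 16 for Cd33. A larger pool more readily holds a near gene, so the distances do not compare the members. Rhob, Srsf3 and Tuba1c were nearest to Itgam, with mean differences of 1.0, 2.2 and 2.4 percentile points over 2 lists. Epas1 and Cyb5r1 were nearest to Tfrc at 0.6 and 3.2 points, and Hnrnpl and Arhgap25 to Il10rb at 3.3 and 4.8. Cd44 was nearest to Atp2b1 at 2.5 points, and Cd33 to Rpl41 at 5.3. Ywhaz, Ctnnb1 and Sirpa were nearest to Cebpb, at 3.1, 4.9 and 5.1 points over 5 lists. Cd53 had 6 other genes with its lists, the nearest Fam214b at 17.5 points and the next Stat6 at 47.6. Lyz2 was nearest to Naaladl2, at 2.7 points in its 1 list.

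Other genes of the same families were followed in the same way. Of 150 further genes in 10 lists of macrophage receptors, iron handling, tetraspanins, myeloid transcription factors and macrophage products, 37 had a peak in any list, or 24.7%, beside 8.14% of all coding genes. These lists were drawn up from genes that macrophages express, and their expression was not matched to that of other genes. Of these genes 14 had a peak in both 0 h lists, 7 in both 24 h lists and 10 in both 48 h lists. The 14 included 2 lost at 24 h (Alcam and Rdx) and 2 lost at 48 h (Alcam and Lilrb4a), or 14.3% each time. Of all coding genes called in both 0 h lists, 41.7% and 38.2% were lost. The 8 members belong to the same family lists but are not among the 14, and they were chosen by their pattern. Of the 6 members called in both 0 h lists, 4 were lost at 24 h and 5 at 48 h. The 14.3% is therefore not the share of the whole families. Csf2ra, the α chain of the GM-CSF receptor, was the 1 of the 150 genes gained at 48 h, and it also had a peak in 24 h list 1. The 37 genes with a peak had it in a median of 2 lists, against 1 for all coding genes called in any list.

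Among the integrins and complement receptors, Itgb1, the β1 integrin chain, had a peak in 5 lists, all but 48 h list 2, with its highest −log10 p of 17.4 at a fold of 3.57. C3ar1 and C5ar1, receptors of the complement fragments C3a and C5a, had one in 0 h list 1 only. Of 22 cytokine receptor genes 7 had a peak, the member Il10rb included. Counts per family, here and below, include the members, which were chosen by their peaks. Ifngr2, which encodes a subunit of the receptor for IFN-γ, had one in all lists but 24 h list 1, with a fold of 5.40 where its p was lowest (0 h list 2), and Tnfrsf1b, TNF receptor 2, in 0 h list 2 and both 24 h lists. The iron list held peaks for Tfrc and Hmox1 only, and Hmox1, the heme oxygenase that frees iron from heme, had one in all 6 lists. Of the adhesion genes, Ptprc (CD45) had a peak in all 6 lists, with a fold of 3.80 where its p was lowest (0 h list 1), and Msn, the membrane-to-actin linker moesin, in 3.

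Among 17 Siglecs and inhibitory receptors 7 had a peak, the member Cd33 included. Sirpa, the receptor for the CD47 signal, had one in all lists but 24 h list 2 and reached a −log10 p of 58.1 at a fold of 4.06, and Cd274 (PD-L1) had one in 4 lists. The tetraspanin Cd9 had a peak in all lists but 48 h list 2, with a fold of 3.18 where its p was lowest (0 h list 2), and Tspan14 in 0 h list 1 only. Of 21 myeloid transcription factors 8 had a peak, the member Cebpb included, with Zeb2 in all 6 lists, Bhlhe40 in 5 and Cebpa in 3. Of the 4 called in both 0 h lists, 0 were lost at either time. Cebpb is among these 4 and was chosen with its pattern known, so its part of that count was fixed. Of all coding genes called in both 0 h lists, 41.7% were lost at 24 h and 38.2% at 48 h. Among macrophage products, Mpeg1 had a peak in 0 h list 2, Fcer1g in 24 h list 2 at a fold of 3.27. Mrc1 had one in 0 h list 1 and 48 h list 2. For comparison, 52.0% of the coding genes called in any list were called in 1 only. Of 21 phagocytic and Fc receptor genes 2 had a peak, Cd36 in 3 lists and Scarb2 in 1. Of 15 Toll-like and chemokine receptor genes 2 did, Cxcr4 in 5 lists and Ccr1 in 2. The share of all coding genes with a peak in any list was 8.14%.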

How the data were processed

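ac4C pull-down and total RNA libraries came from 12 samples in 6 groups of 2. The submitters' processing notes name BWA 0.7.12, MACS2 2.1.0 and GRCm39, without roles or settings. Per the file headers, the authors' tables give each summit's fold enrichment, a ratio over the caller's background, and its p-value and q-value as −log10. Lists name a time and not a sample, and do not say whether the total RNA samples served as their control.

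A gene had a peak where a deposited row names it under the peak. Starts and ends are as deposited; a start may be off by 1 base. Regions were merged at an overlap of 1 base. Place is the annotation of the peak centre, 3′ UTR first where several apply. The members and gene lists were chosen with earlier results of these data known. Lost at a time means a peak in both 0 h lists and in neither list of that time, gained the reverse. Named beside the members were, per family list, at most 4 genes with a peak in 3 lists or lost or gained, or all where 5 or fewer had a peak. Protein-coding genes came from a RefSeq table (GRCm38.p6, names and types only), which matched 94.4% of the 2095 symbols.

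Pull-down fragments k and input coverage were recovered from fold and p: fold is (k times a factor per list, plus 1) over (input plus 1), and p is a Poisson upper tail. This matched 100% of summits within 0.005 of −log10 p and was tested on simulated data. The lowest input coverage of a list was its background. Where a summit's input coverage was whole (19 of the members' 27 summits, within 0.01) an exact Poisson interval was given. At the other summits, both of Il10rb among them, the recovered value was not whole. There it is the background that the caller used, which need not be the coverage at the summit itself. Python 3.11.15, pandas 2.3.3 and scipy 1.17.1 were used. Alternatives were q of 0.05 or 1e-05 or less, fold of 4 or more, equal list length (611), matched input coverage, other gene assignments, 50% overlap, and leaving out lists. Sequences of the peaks are not printed, as no GRCm39 genome was used here.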

Additional observations from a re-analysis of the deposited data

How the results depend on the processing

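Counts of members rest on 2 lists a time, and a missing peak is bounded only by the threshold of its list. Of 197 alternative values of the summary counts, 169 were within 1.5 times the value reported and 28 were not. Some of the 169 could not move, such as counts at 0 h when a 48 h list was left out. At a fold of 4 or more, no member had a peak in both lists of 0 h (0, against 6) or of 24 h (0, against 1), and 1 did at 48 h (Cd33, against 2); the losses were then 0 at 24 h, at 48 h and at both (against 4, 5 and 4), the members with a region common to both lists were 0, 0 and 1 at 0, 24 and 48 h, and 3 peaks lay in 3′ UTRs (against 23). That threshold removes most peaks of these genes, whose folds are mostly under 4. With q limits of 0.05 and of 1e-05, 0 members had a peak, or a common region, in both 24 h lists, since the peak of Cd53 in 24 h list 2 was removed. With an overlap of 50% of both peaks, 0 members had a common region at 24 h and 4 at 0 h, since the Cd53 peaks differ in length. Leaving out 1 list at a time gave 1 to 2 members with a peak, and 1 to 2 with a common region, at 24 h, the higher without 24 h list 2, where Cebpb is added. Cd44 kept a peak in 1 list only with the q limit of 0.05, with lists of equal length and with matched input coverage, and in 0 lists with the q limit of 1e-05.

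Among all genes of the family lists, members included, 20, 8 and 12 had a peak in both lists of 0, 24 and 48 h. A fold of 4 or more left 3, 0 and 2 of them, a q limit of 1e-05 left 11, 1 and 4, and a q limit of 0.05 left 4 at 24 h and 7 at 48 h. Leaving out 1 list at a time gave 8 to 16 genes at 24 h (16 without list 2, 14 without list 1) and 12 to 21 at 48 h (21 without list 2). The cause was not tested. No paired analysis was possible because the lists are numbered 1 and 2 at each time but neither they nor the labels say that a number ties samples of different times together, and no test was made.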
